A study of Homo sapiens with 191 samples.

Results

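The keratin and keratin-associated genes were taken as all protein-coding genes whose symbol is KRT or KRTAP followed by a number, in the GENCODE annotation mapped to hg19. Of the 20090 protein-coding genes on chromosomes 1 to 22 and X, this rule gave 55 keratin genes and 94 keratin-associated protein (KAP) genes. Single-cell ATAC-seq was used to measure chromatin accessibility in GM12878, a lymphoblastoid line of B cells transformed by Epstein-Barr virus. Cells of this line were fixed, permeabilised and transposed together, and then sorted individually into wells of 2 plates. All libraries, 96 from plate 1 and 95 from plate 2, belong to 1 untreated group of this 1 line, and no antibody stain is named in their labels. The authors pooled the cells to call 1 list of 50000 accessible regions of 501 bp as written, which gives no value per library. Single libraries were also filtered on fragment number and on the share of fragments in peaks, and the methods do not say whether the libraries removed were among the pooled cells.

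ATAC-seq marks DNA that a transposase can reach, such as active promoters and enhancers. Each region carries a score, the −log10 of the q-value of the call, which ranged from 16.03 to 4437.64 with a median of 31.62. The depth behind a score is unknown from this list, and a gene without a region is a gene whose signal did not enter the strongest 50000 calls, not a gene shown to be closed. With 1 list and 1 group there is no replicate spread, so no difference was tested, and the intervals given for shares and densities cover counting error only. The cell type was checked against 12 B cell markers. A region centre lay within 1 kb of a transcription start site (TSS) in 10 of them (83.3%, exact interval 51.6 to 97.9%). This interval includes the 57.2% of all protein-coding genes, so the share alone does not set the markers apart. The 4 highest scores were at CD74 (score 1229.57), BLK (507.67), POU2AF1 (413.67) and EBF1 (231.36). The median score of the 10 was 94.2, against 129.6 for all protein-coding genes with such a region. CD22 had none within 1 kb of a TSS but had 4 regions in the gene plus 10 kb.

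Keratins are the intermediate filament proteins of epithelia. An acidic type I keratin pairs with a basic type II keratin to form a heterodimer, the unit from which the filament is built. The pair KRT8 and KRT18 is typical of simple epithelia, KRT5 and KRT14 of the basal epidermis, and KRT1 and KRT10 of the layers above it. Further keratins build the hair shaft and the inner root sheath that surrounds it. KAPs form the matrix in which the keratin filaments of the hair shaft are embedded, and many are rich in cysteine or in glycine and tyrosine. The type II genes lie together on chromosome 12 and the type I genes on chromosome 17, except KRT18, which lies beside KRT8.

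The sequences that frame the results are those under the regions at KRT7 and KRT8, the members with a promoter region, and those before the start of genes that had none. The first set below holds the central 300 bases of the regions nearest to a start of KRT7 and of KRT8. Sequences are from GRCh37 in hg19 coordinates, 5′ to 3′ on the strand stated. Capitals mark matches to consensus motifs, each searched on either strand. The GC box was searched as GGGCGG and the box bound by KLF factors as CCACCC. The consensus of AP-1 was TGANTCA and that of AP-2 was GCCNNNGGC. TATAAA stood for the TATA box. Matches can overlap, so that 1 run of capitals may hold several.
KRT7 region centre, chr12:52638011-52638310, plus strand: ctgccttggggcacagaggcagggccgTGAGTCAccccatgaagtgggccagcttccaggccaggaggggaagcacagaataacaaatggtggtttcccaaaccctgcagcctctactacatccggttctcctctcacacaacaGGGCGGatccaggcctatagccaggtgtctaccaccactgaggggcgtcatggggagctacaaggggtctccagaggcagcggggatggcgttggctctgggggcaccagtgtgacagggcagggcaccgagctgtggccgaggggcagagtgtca
KRT8 region centre, chr12:53297550-53297849, plus strand: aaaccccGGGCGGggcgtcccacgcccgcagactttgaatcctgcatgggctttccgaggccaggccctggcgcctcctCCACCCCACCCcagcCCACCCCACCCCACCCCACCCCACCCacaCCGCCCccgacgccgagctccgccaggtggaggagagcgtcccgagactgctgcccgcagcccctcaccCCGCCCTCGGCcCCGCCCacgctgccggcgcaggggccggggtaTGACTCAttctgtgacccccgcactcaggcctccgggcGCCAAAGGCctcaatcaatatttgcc

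The printed bases of the KRT8 region held 4 GC boxes, 7 overlapping KLF matches, 2 AP-2 matches and 1 AP-1 match. Those of the KRT7 region held 1 AP-1 match and 1 GC box. A match describes letters in these windows and does not show that a factor was bound.

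The next set holds the 250 bases before the outermost annotated start of 2 members without a region within 10 kb, KAPs of chromosomes 17 and 21, which are shown because they carry a TATAAA upstream of the start.
KRTAP9-2 before the start, chr17:39382650-39382899, plus strand: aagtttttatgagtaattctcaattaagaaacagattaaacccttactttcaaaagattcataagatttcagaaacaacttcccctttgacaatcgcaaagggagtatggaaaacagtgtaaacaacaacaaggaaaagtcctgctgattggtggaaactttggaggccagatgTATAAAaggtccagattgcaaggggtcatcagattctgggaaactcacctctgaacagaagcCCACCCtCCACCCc
KRTAP13-1 before the start, chr21:31768099-31768348, plus strand: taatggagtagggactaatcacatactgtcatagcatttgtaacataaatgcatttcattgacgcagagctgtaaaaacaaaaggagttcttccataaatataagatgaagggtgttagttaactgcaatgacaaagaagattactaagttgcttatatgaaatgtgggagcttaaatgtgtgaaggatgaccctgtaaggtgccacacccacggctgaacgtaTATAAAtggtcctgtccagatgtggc

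In KRTAP13-1 the TATA box began at base 225 of the 250 printed, while in KRTAP9-2 it lay further from the start, outside the 60 bp window used for the counts given with the RefSeq promoters.

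A promoter region, meaning a region centre within 1 kb of any annotated TSS, was found for only 2 members, KRT7 and KRT8. This was 1.34% of the members (exact 95% interval 0.163 to 4.76%) against 57.2% of all protein-coding genes (11499 of 20090). Among the keratin genes the share was 3.64% (2 of 55, 0.443 to 12.5%). None of the 94 KAP genes had a promoter region, with an upper exact limit of 3.85%. An approximate upper limit of 3 counts in 94 genes is 3.19%. The exact intervals treat genes as independent, whereas the members lie in clusters and neighbours share their nearest region. The true uncertainty of these shares is therefore wider. By type, 2 of 26 type II keratins and 0 of 29 type I keratins had a promoter region.

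Extending each gene by 10 kb on both sides gave 10 members with a region (6.71%, 3.27 to 12.0%), against 74.7% of all protein-coding genes. All 10 were keratins (18.2% of 55). They were KRT7, KRT8, KRT80, KRT81, KRT83, KRT85 and KRT86 on chromosome 12, and KRT10, KRT23 and KRT33A on chromosome 17. No KAP gene had a region in this span. The median number of regions in the gene plus 10 kb was 0 for the members and 2 for all protein-coding genes, and the highest among the members was 3, at KRT86.

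**Figure D1:**
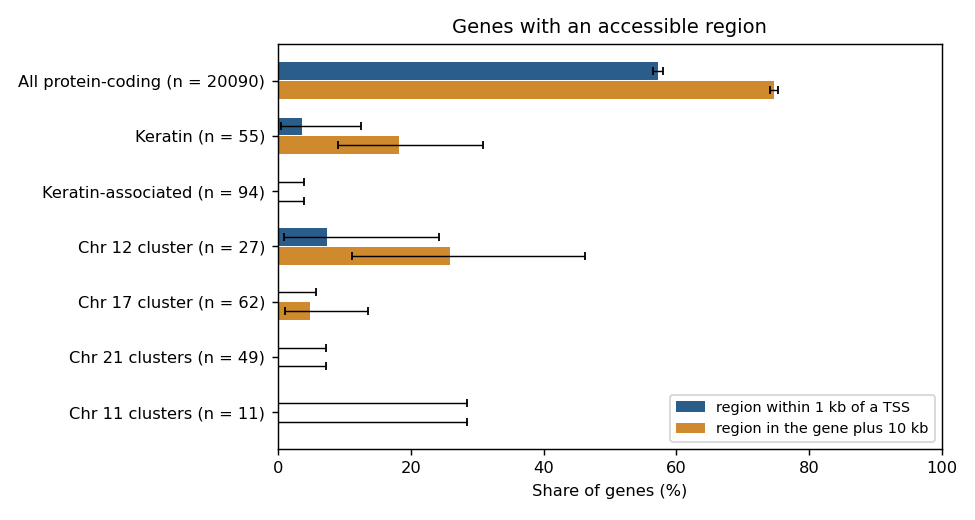
Share of genes (horizontal axis, %) with a region within 1 kb of a TSS (blue bars) and in the gene plus 10 kb (orange bars), with exact 95% binomial intervals as whiskers. The bars of all protein-coding genes reach 57.2% and 74.7%, while those of the keratin genes reach 3.64% and 18.2% and the KAP genes have no bar.

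The other genes of the same chromosomes were counted for comparison. On chromosome 12, 2 of 27 members had a promoter region against 64.7% of the other genes. On chromosome 17 none of 62 members had one against 47.0% of the other genes, on chromosome 21 none of 49 against 56.7%, and on chromosome 11 none of 11 against 51.2%. The shares of the other genes of chromosome 17 (exact interval 44.1 to 50.0%) and of chromosome 11 (48.5 to 54.0%) lay below the 57.2% of all genes. Chromosome 21 had the lowest density of regions of all 23 chromosomes, 11.1 per Mb against 17.6 over the genome. With 11 genes, the exact upper limit for chromosome 11 was 28.5%.

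Of 5 keratins of simple epithelium, KRT7 and KRT8 had a promoter region, and KRT18, KRT19 and KRT20 had none. With only the outermost start of each gene this count was 0. No RefSeq start was matched for KRT7, KRT18 or KRT19, and KRT8 and KRT20 had no region within 1 kb of theirs. KRT7 and KRT8 were the 2 members with 10 or more annotated starts, as described further on. The role groups were formed after values were seen, and no difference between them was tested. KRT18, the partner of KRT8, had its nearest region 45.0 kb from a TSS, and KRT19, a type I keratin of ductal epithelia, had it at 138.1 kb. KRT20, a keratin of intestinal epithelium, had it at 30.3 kb.

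Of 12 epidermal keratins none had a promoter region, and only KRT10 had a region in the gene plus 10 kb. The basal pair KRT5 and KRT14 had their nearest regions at 157.5 and 79.5 kb. The suprabasal KRT1 had its nearest at 199.2 kb and KRT10, its partner, at 3.74 kb. Distances of the 12 genes ranged from 3.7 kb (KRT10) to 227.4 kb (KRT2, a keratin of the upper epidermis), with a median of 103.5 kb.

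Of 17 hair shaft keratins none had a promoter region and 5 had a region in the gene plus 10 kb, which were KRT33A, KRT81, KRT83, KRT85 and KRT86. Their distances to the nearest region ranged from 3.2 to 149.3 kb. None of the 8 inner root sheath keratins had either kind of region. Among those 8 genes KRT28 was nearest to a region, at 18.9 kb, and KRT73, at 256.6 kb, was the farthest of all keratins. The 5 keratins of oral and corneal epithelium (KRT3, KRT4, KRT12, KRT13 and KRT76) also had neither, with distances of 44.9 to 160.7 kb. Of the 8 remaining keratins, KRT80 and KRT23 had a region within 10 kb of the gene.

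The strongest region near a member lay at KRT7, a type II keratin of glandular and ductal epithelia, on chromosome 12 at 52637911 to 52638411. Its score of 54.06 was above the list median of 31.62 and ranked it 15900 of 50000. The centre lay 1 bp from an internal start at 52638162, in an exon of the gene. The 13 annotated transcripts of KRT7 had 13 different starts, of which only this 1 lay within 1 kb of a region, and its transcript has no annotated coding sequence. The single transcript annotated as protein coding starts at 52627027, 7231 bp from the nearest region. That region, at 52634008 to 52634508 in an intron, scored 20.05 and lay 1054 bp from another internal start. In it 52.4% of the 31-mers occurred again in the genome, whereas none did in the stronger region.

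The region at KRT8 spanned chromosome 12 from 53297450 to 53297950 and scored 24.25, which ranked it 30444. It lay in an intron, 268 bp from the start at 53297432 of a coding transcript. Again only 1 start of 18 was within 1 kb. A cluster of other starts, among them the coding start at 53298860, lay just outside this window, at 1128 to 1160 bp from the region centre. The single RefSeq start used here for KRT8 lay 22553 bp away, and the outermost start, at 53343738, 46038 bp away. The promoter regions of KRT7 and KRT8 therefore both depend on internal starts. With only the outermost start of each gene, 0 members had a promoter region against 49.2% of all protein-coding genes. With the RefSeq start, 0 of 110 matched members had one against 55.3% of matched genes. KRT7 was not among the matched members, so this count does not cover it.

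The class of 10 or more annotated starts, which among the members held KRT7 and KRT8, was one in which 79.0% of all protein-coding genes had a promoter region. At the other end, 22 keratins and 91 KAP genes had 1 start, and none of these had a promoter region against 25.6% of the other genes with 1 start.

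In all, 11 regions lay in a member plus 10 kb, 8 on chromosome 12 and 3 on chromosome 17. Their scores ranged from 17.34 to 54.06 with a median of 24.25. Of the 11, 9 were below the list median, 1 was at it and 1, at KRT7, was above it. For comparison, regions within 1 kb of a protein-coding TSS had a median score of 64.33 and all others 25.69. By position, 3 of the 11 lay in introns, 2 in exons and 6 between genes. Their GC content had a median of 55.7% (32.7 to 63.7%) against 51.1% in the whole list.

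A pair of regions lay beyond the 3′ end of KRT80, a type II keratin. The stronger, with a score of 31.62, lay 24 bp from the start of LINC00592, a long non-coding RNA, and 21658 bp from the nearest start of KRT80. The weaker, at 52562127 to 52562627 with a score of 25.69, lay inside LINC00592.

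The hair keratin genes of chromosome 12 held 3 regions. The first, at 52681860 to 52682360 (score 27.15), lay in an intron shared by the overlapping genes KRT81 and KRT86, 3208 bp from the KRT81 start, and 54.1% of its 31-mers occurred again in the genome. Of the others, 1 lay 6328 bp upstream of the KRT83 start (score 25.69), and 1 lay beyond the 3′ end of KRT85, 5894 bp from an internal start (score 20.05). KRT86 is annotated across 52643084 to 52702947, so its 3 regions were those of KRT7 and KRT81.

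On chromosome 17 the region at KRT10, at 38974872 to 38975372, scored 18.68. It lay in an exon 3744 bp from the KRT10 start and 231 bp from the start of the long non-coding RNA KRT10-AS1. ATAC-seq does not assign a region to either strand. The regions near KRT33A, a hair keratin (39496595 to 39497095, score 21.43), and KRT23 (39071564 to 39072064, score 17.34) lay beyond the 3′ ends of these genes, 10235 and 20828 bp from their nearest starts.

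Sequence motifs were counted over the full width of these 11 regions. AP-1 matched in 4 (KRT7, KRT8, KRT83 and KRT23) against 16.9% of all 50000 regions. The KLF box also matched in 4 (KRT7, KRT8, KRT81 and KRT83), against 45.4% of all regions. The RUNX consensus TGTGGT, the EBF1 consensus CCCNNGGGA and the GC box each matched in 3, against 32.8%, 12.7% and 34.0% of all regions. The octamer ATTTGCAT, the NF-kB consensus GGGANTTCC and the PU.1 and SPIB consensus GAGGAAG matched in none, against 3.30%, 3.32% and 21.2%. With 11 regions these counts are a description only.

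The distance from any TSS to the nearest region had a median of 138.1 kb in the members and 0.235 kb in all protein-coding genes. More than 50 kb separated 81.2% of the members (30 keratins and 91 KAP genes) from any region, against 13.7% of all genes. The keratin genes had a median of 63.5 kb and the KAP genes one of 181.2 kb. The KAP gene closest to a region was KRTAP17-1, at 24.9 kb, and the farthest was KRTAP6-1, at 518.9 kb. After KRT7 and KRT8 the nearest members were KRT81, KRT10, KRT86, KRT85 and KRT83, at 3.2 to 6.3 kb.

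**Figure D2:**
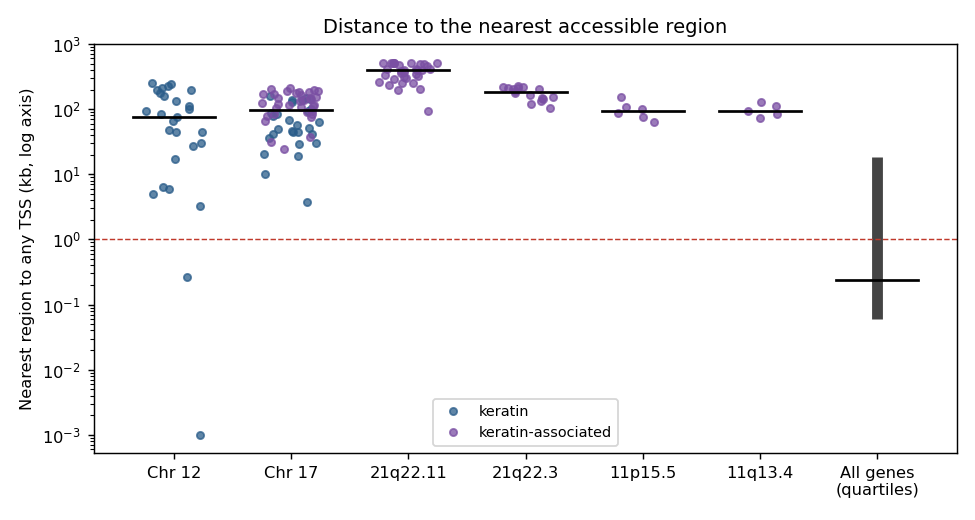
Distance from each member's starts to the nearest region (vertical log axis, kb) by cluster, with 1 point per gene, keratins in blue, KAP genes in purple and black lines at the medians. The bar at the right spans the quartiles of all protein-coding genes around their median of 0.235 kb, and only KRT7 and KRT8 lie below the dashed line at 1 kb.

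The members fell into 6 clusters. The chromosome 12 cluster, 27 keratins from KRT80 to KRT18 over 783.9 kb, held 7 regions, or 8.93 per Mb (exact Poisson interval 3.59 to 18.4), against 17.6 per Mb over chromosome 12. The regions were placed unevenly. From the KRT85 region to the next lay a gap of 520.9 kb that contained 20 members, including KRT5, the KRT6 genes, KRT1, KRT2 and the inner root sheath genes KRT71 to KRT74. The gap ended at a region at 53273130 to 53273630, which had a score of 57.45, lay between genes 22271 bp from a KRT8 start and was the strongest in the cluster. The left end of the cluster, from KRT80 to KRT85, and KRT8 at the right end therefore carried all regions of chromosome 12 that reached a member.

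The chromosome 17 cluster, 28 keratins and 34 KAP genes over 970.2 kb, held 3 regions, or 3.09 per Mb (0.638 to 9.04), against 14.0 per Mb over the chromosome. Its upper limit was below the density of the chromosome. With 50 kb added on each side the span held 7 regions, or 6.54 per Mb. The longest gap, of 425.0 kb between the regions near KRT23 and KRT33A, contained 37 members, among them all 34 KAP genes of the cluster.

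Both KAP clusters of chromosome 21 were without a region. At 21q22.11, 33 KAP genes spread over 757.2 kb lay inside a gap of 1047 kb, which was longer than 99.8% of the 49977 gaps between neighbouring regions. The upper limit was 4.87 regions per Mb against 11.1 over the chromosome. At 21q22.3, 16 KAP genes lay over 159.1 kb, within the gene TSPEAR, which itself had no promoter region, in a gap of 462.5 kb. This cluster, at the density of chromosome 21, would hold 1.77 regions, and the upper limit of its density was 23.2 per Mb, above that of the chromosome. The clusters of chromosome 11, with 6 KAP genes over 113.4 kb at 11p15.5 and 5 over 76.1 kb at 11q13.4, also held none. They would hold 2.05 and 1.37 regions at the density of their chromosome, so a lower density is not detectable in these 3 short spans.

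**Figure D3:**
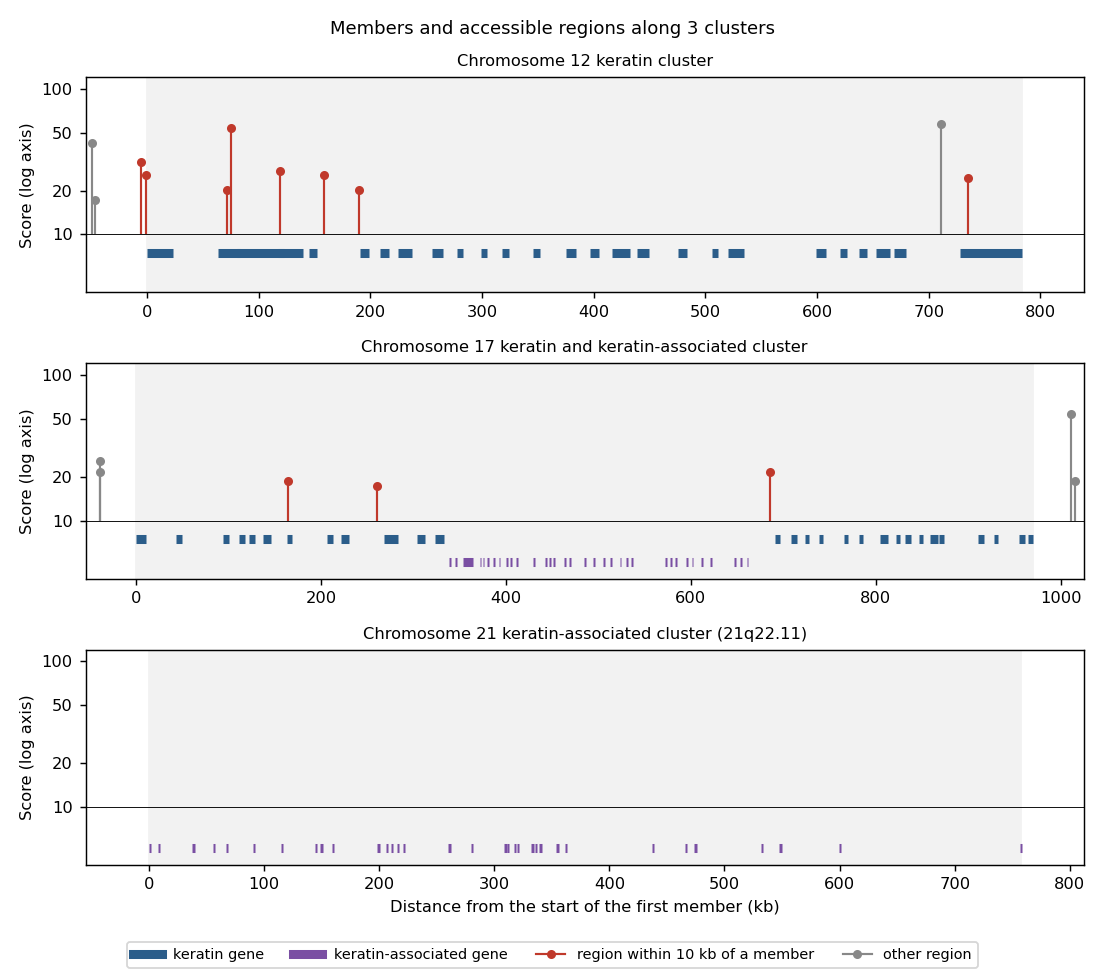
Members and regions along 3 clusters, in kb from the start of the first member (horizontal axis) and by score of each region (vertical log axis). Keratin genes are blue bars, KAP genes purple bars, red stems are the regions in a member plus 10 kb and grey stems other regions, and the shaded span is the cluster, with 7 regions on chromosome 12, 3 on chromosome 17 and none at 21q22.11.

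Of the 5 nearest protein-coding genes on each side of the 6 clusters, 33 of 60 (55%) had a promoter region, against 57.2% of all genes. Among them were the translation factor genes EIF4B (score 311.39), beside the chromosome 12 cluster, and EIF1 (184.48), beside the chromosome 17 cluster, which lay 53.4 and 64.0 kb from the nearest member. CCR7, a chemokine receptor gene of lymphocytes, lay 89.2 kb to the left of the chromosome 17 cluster with a score of 52.39. TIAM1, an activator of Rac, lay 79.9 kb to the right of the 21q22.11 cluster with a score of 286.54. Flanking genes without a promoter region included SMARCE1, 6.0 kb from the chromosome 17 cluster, and DUSP8, 12.1 kb from that of 11p15.5. By cluster, the flanking genes with a promoter region ranged from 3 of 10 at 11p15.5 to 7 of 10 at chromosome 12 and at 11q13.4.

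KAP families were alike in having no region nearby but differed in distance. The 22 genes of the high glycine-tyrosine families (KRTAP6, 7, 8, 19, 20, 21 and 22), all at 21q22.11, had a median distance of 435.9 kb, and the 72 other KAP genes one of 150.5 kb. Those 22 genes share 1 gap of 1047 kb, so their distances depend on the regions at its ends and are not independent values. The other KAP genes in that gap were at 196.9 kb (KRTAP24-1) to 354.2 kb (KRTAP15-1). KRTAP19-8, which sits alone at the right end of 21q22.11, was at 94.3 kb, while the 3 KRTAP6 genes in the middle were at 506.4 to 518.9 kb. On chromosome 17, the 12 KRTAP4 genes were at 155.7 to 208.6 kb and the 8 KRTAP9 genes at 64.9 to 150.7 kb. The single genes KRTAP17-1, KRTAP16-1 and KRTAP29-1 at the edge next to the hair keratins were at 24.9, 31.3 and 37.7 kb. The 11 KRTAP5 genes of chromosome 11 were at 63.4 to 153.9 kb.

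Repeated sequence at the starts was counted because the authors kept only uniquely mapped reads of good quality. Their reads were longer than 31 bases, so a repeated 31-mer does not mean that a read there was lost. The share of 31-mers within 1 kb of a TSS that occur again in the genome had a median of 8.63% in the members (4.70% in the keratins) and 5.91% in all protein-coding genes. It was highest in KRTAP9-8 (62.7%), KRTAP4-9 (60.2%), KRTAP4-7 (53.7%) and KRT6C (53.6%). Among the 46 keratins and 59 KAP genes at or below 20%, 2 genes had a promoter region against 61.0% of the other genes in that class. Among the 9 keratins and 35 KAP genes above 20%, none had one against 32.3%. The 22 high glycine-tyrosine genes had a median of 1.4% repeated 31-mers, and the 72 other KAP genes had 19.3%. These shares describe only the sequence within 1 kb of the starts. Whether read mapping plays a part at any of these genes was not tested.

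The outermost starts of the members were poor in CpG dinucleotides, the mark of widely active promoters. The observed over expected CpG ratio within 500 bp of the outermost start had a median of 0.225 in the members and 0.686 in all genes. In the lowest quartile of this ratio, below 0.326, there were 44 keratins and 85 KAP genes. Of these, 2 (KRT7 and KRT8) had a promoter region against 25.2% of the other genes of that quartile. The promoter regions of KRT7 and KRT8 lay at internal starts, so the ratio does not describe the sequence at these regions. For all genes the ratio was read at the outermost start and the promoter region at any start. In the next quartile none of 18 members had one against 53.0%. Only KRT18 (0.713) and KRT19 (0.752) reached the third quartile, and neither had a promoter region although 75.9% of the other genes there did. Restricting all genes to those with 1 start in the lowest CpG quartile left 19 keratins and 82 KAP genes with none, and there the share of the other genes was 4.72%. Within this class a region in the gene plus 10 kb was found for 2 members against 30.0% of the other genes.

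**Figure D4:**
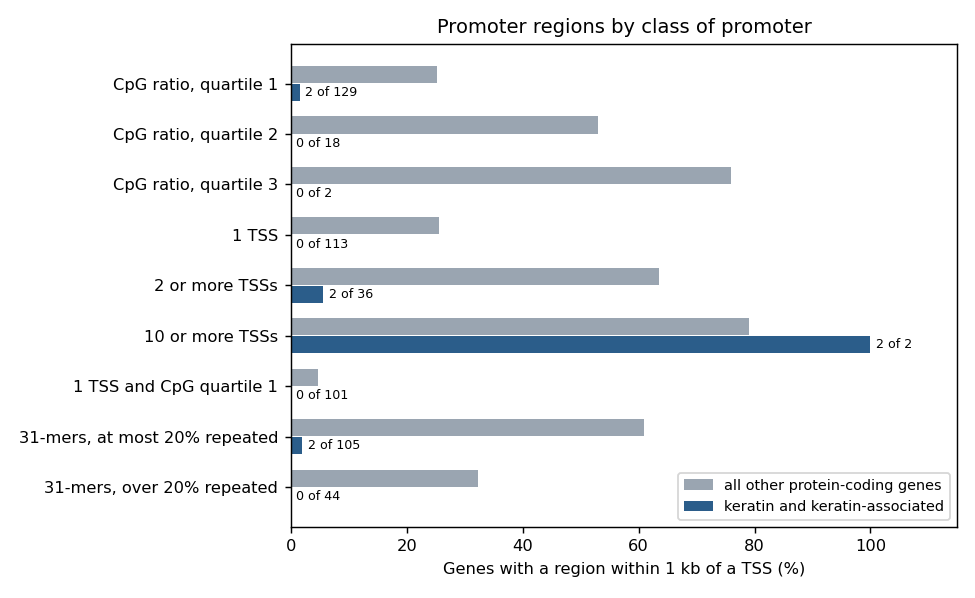
Share of genes with a region within 1 kb of a TSS (horizontal axis, %) for members (blue, with counts) and all other protein-coding genes (grey), in classes of CpG ratio, number of starts and repeated 31-mers. The grey share falls from 75.9% in CpG quartile 3 to 4.72% among genes with 1 start in quartile 1, where no member has a region.

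RefSeq promoter sequences, from 250 bases before to 50 after a start, were matched for 110 members (34 keratins and 76 KAP genes) among 15018 genes. TATAAA on either strand was present in 58.8% of the keratin and 81.6% of the KAP promoters, against 9.56% of all. In the sense direction within 60 bp upstream of the start it was present in 16 of 34 keratins (47.1%) and 45 of 76 KAP genes (59.2%), against 4.04% of all. Of all 606 genes with such a TATA box 27.4% had a promoter region, and none of these 16 keratins and 45 KAP genes did. The GC box was present in 17.6% of keratin and none of the KAP promoters, against 59.5% of all. Neither of the printed KAP starts holds a GC box. Both were chosen because they carry a TATAAA, so they do not bear on the TATA shares. In the first of them the TATAAA lies outside the 60 bp window.

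Genes of epithelia and of intermediate filaments were also read from lists. Of 28 genes of the cornified envelope and skin barrier, 2 had a promoter region, the lipoxygenase gene ALOXE3 (score 42.55) and PPL, which encodes periplakin (40.95). ALOX12B, CASP14, CDSN and CRNN were among those without. Of 14 desmosome genes 2 had one (14.3%, 1.78 to 42.8%), DSG2 (153.58) and JUP, which encodes plakoglobin (34.68). Of the desmocollin genes, DSC1, DSC2 and DSC3 had none.

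The intermediate filament genes outside the keratins had a promoter region in 6 of 15. They were led by LMNB1, which encodes lamin B1 of the nuclear lamina, with a score of 1287.83, and by VIM, the vimentin gene of mesenchymal and blood cells, with 418.42. BFSP2 (222.71) and BFSP1 (139.5), genes of the lens filament, followed. DES of muscle, GFAP of glia, INA of neurons and LMNB2 had none.

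Regulators of epithelium and hair had a promoter region in 10 of 22 (45.5%, exact interval 24.4 to 67.8%, against 57.2% of all genes). The highest scores were at KLF5 (736.63), TFAP2A (708.33), GATA3 (437.5) and ESRP2 (199.21), while DLX3, ESRP1, FOXN1 and GRHL2 were without a promoter region. Of 10 epithelial markers, 4 had one (40%, 12.2 to 73.8%), MUC1 (54.06), EPCAM (33.14), CDH1 (24.25) and KRT8 (24.25). The marker list includes the members KRT8, KRT18 and KRT19, so it overlaps the keratin count. CLDN3, CLDN4, CLDN7 and ESRP1 had no promoter region. The nearest region to ESRP1 lay 1011 bp from a start, just outside the window. For promoter regions, the intervals of both lists, and of the other intermediate filament genes, include the 57.2% of all genes. In the gene plus 10 kb, 16 of the 22 regulators (72.7%) and 7 of the 10 markers (70%) had a region, against 74.7% of all genes.

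**Figure D5:**
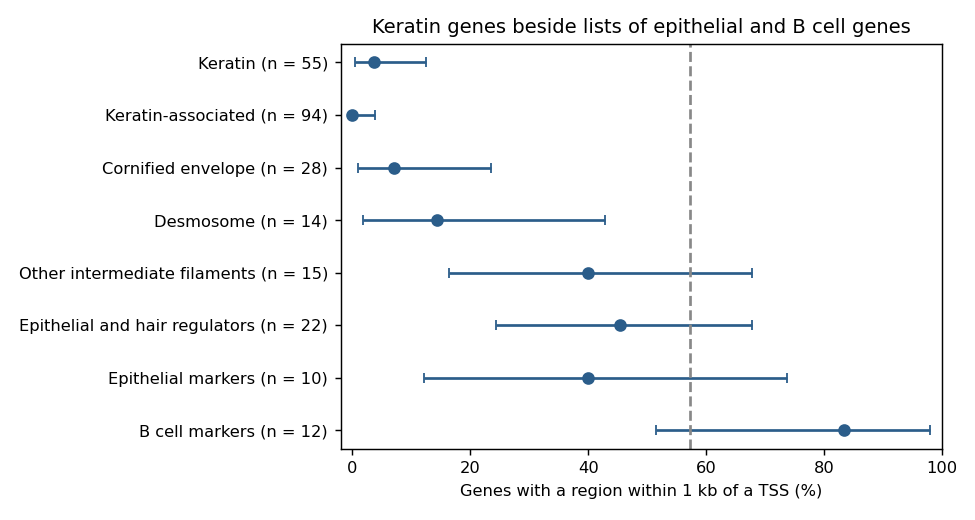
Share of genes with a region within 1 kb of a TSS (horizontal axis, %) in the keratin and KAP genes and in 6 lists of related or marker genes, with exact 95% binomial intervals and a dashed line at the 57.2% of all protein-coding genes. The keratin, KAP, cornified envelope and desmosome intervals end below the line. The point of the B cell markers, 10 of 12, lies above the line, but their interval (51.6 to 97.9%) includes it.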

How the data were processed

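Single-cell ATAC-seq libraries of GM12878 were analysed through the 1 list of regions that the authors deposited. Per the study's methods, adapters were trimmed, read pairs were mapped to hg19, and low-quality, duplicate and mitochondrial reads were removed. Summits were called on aggregated cells, and the 50000 of least q-value were kept at fixed width. Mapping used Bowtie2 2.1.0 and duplicate removal Picard 1.79, as listed by the submitters' processing notes. The version of MACS2, used for calling, was not given in the sources used here. As deposited by the authors, a score is the −log10 of a q-value. Depth is unknown, because the list holds no reads.

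Coordinates are hg19, 1-based, with GRCh37 sequence and GENCODE 44 genes mapped to that build. Regions were placed by their centre. RefSeq promoter sequences, from a table of build GRCh38.p14, were matched exactly to GRCh37 for 110 members. Intervals are exact binomial or Poisson at 95%. No test was possible with 1 pooled list, and counting was tested on simulated data. Neighbouring members under 1 Mb apart formed a cluster. Repeats were counted as 31-mers on both strands.

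The members and lists were chosen with earlier results of these data known. Named genes were all members with a region at a TSS or in the gene plus 10 kb, 7 reference keratins (KRT1, KRT5, KRT8, KRT10, KRT14, KRT18 and KRT19), the strongest regions of each cluster, and in each list the 4 strongest genes and up to 4 without a promoter region. The role groups of keratins, the KAP families and the genes named from them or beside the clusters were chosen after values were seen, as were the 4 printed sequences. Some items that these rules name are withheld and not reported here. Alternatives changed the window (500 bp, 2.5 kb), the TSS set, the flank (0, 50 kb), the part of the list and the class of genes. The RefSeq start and the classes of genes were chosen after seeing the data. The work was done in Python 3.11.15 with scipy 1.17.1, pandas 2.3.3, matplotlib 3.10.9, numpy 2.4.6 and numba 0.67.0.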

Additional observations from a re-analysis of the deposited data

How the results depend on the processing

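With a window of 500 bp or 2.5 kb, or without the regions of lowest score, KRT7 and KRT8 remained the 2 members with a promoter region. With only the outermost start, 0 members and 0 keratins had one. With the RefSeq start, which was not matched for KRT7, 0 of 110 matched members and 0 of 34 matched keratins had one. With regions at or above the median score, 1 did (KRT7). The KAP count was 0 under each alternative run. The share of all protein-coding genes was 54.8% at 500 bp, 60.3% at 2.5 kb, 49.2% with the outermost start, 48.9% in the stronger part of the list, 55.3% with the RefSeq start and 60.7% in mostly unique windows. It was 24.7% in genes with 1 start, 19.1% in genes of at most 2 kb, 24.6% in the lowest and 75.7% in the highest CpG quartile. Members with a region in the gene plus flank numbered 5 without a flank (all genes 53.4%), 28 at 50 kb (88.2%) and 3 in the stronger part of the list (63.3%). In that part the density was 2.55 per Mb in the chromosome 12 cluster and 0 in the chromosome 17 cluster. With clusters extended by 50 kb, the density was 12.4 per Mb on chromosome 12 and 6.54 on chromosome 17 (7 regions), both within the interval of the unextended cluster. The remaining densities were as reported. No paired analysis was possible because the result comes from no test and the list holds 1 group. The list is cut at its strongest 50000 calls and holds no value per cell, so weak or rare accessibility at a member cannot be seen.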

Other observations

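Keratin and KAP pseudogenes, many of them processed copies of KRT8 and KRT18, are spread over the genome. Of these pseudogenes, 6 (3.61%) had a region within 1 kb of their start, against 3.65% of all 14995 annotated pseudogenes. In the pseudogene plus 10 kb, 33 (19.9%) had a region, against 22.6%. The strongest of the 6 was at KRT8P12, with a score of 1566.97, and this region lay 93 bp from a start of KPNA4, a nuclear import gene. The other 5 had scores of 16.03 to 24.25.

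Genes with a similar name but of other families fell outside the rule. KRTCAP2, which encodes a subunit of the oligosaccharyltransferase complex, had a promoter region with a score of 25.69. KRTCAP3 and KRTDAP had none, with their nearest regions at 13136 and 5615 bp.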
